A study of Mus musculus with 12 samples.

Results

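The mitochondrial ribosomal protein genes were taken as all genes whose symbol begins with Mrpl or Mrps followed by a digit, with 4 pseudogenes named -ps left out. They were 75 of the 13768 genes listed in either of 2 deposited tables, 46 named for the large subunit (Mrpl) and 29 for the small subunit (Mrps). All 75 stood in the wild-type table and 74 in the knockout table, which does not list Mrpl23. Of the 75, 48 belong to protein families shared with bacterial ribosomes, 26 are known only from mitochondrial ribosomes, and Mrps36 was put in neither class. Mrps36 is now known as a component of the ketoglutarate dehydrogenase complex, and Mrps18a and Mrps30 sit in the large subunit of the known structure despite their names.

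The mitochondrial ribosome translates the few mRNAs of the mitochondrial genome, all of which encode subunits of the respiratory chain and the ATP synthase. Its RNAs come from that genome, whereas every one of its proteins is encoded in the nucleus, translated on cytosolic ribosomes and imported. The mRNAs followed here are therefore substrates of the cytosolic ribosome, the particle that polysome fractionation isolates.

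The study sequenced RNA from C2C12, an established line of mouse myoblasts (proliferating muscle precursor cells), of 2 genotypes: wild type (WT) and Ddx27-/-. Ddx27 is a nucleolar DEAD-box helicase that takes part in ribosomal RNA processing. From each genotype came total cellular RNA and polysomal RNA, that is, mRNAs loaded with multiple ribosomes, for 4 groups in all. The groups were WT total RNA (3 libraries), WT polysomal RNA (3), knockout total RNA (2) and knockout polysomal RNA (3), 11 libraries in all. The labels list 12 samples, and the remaining knockout total sample was not analysed here. How the knockout was made, whether it is 1 clone, and whether libraries of a group came from separate cultures are not given in the sources used here, so the p-values measure only the spread between these libraries. Knockout libraries are numbered by their columns in the table.

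The libraries held 13683674 to 27347878 reads on listed genes. Ddx27 itself stood at 139 to 150 in the WT total libraries and at 39.7 and 45.0 in the knockout total libraries, in the deposited normalised units, so the labelled genotype is visible in the counts while the gene's mRNA is still present. In the same units the myoblast marker Myod1 was at 137 to 177 in WT total RNA but at 0.363 and 1.13 in knockout total RNA, and Pax7, at 2.91 to 6.74 in WT total RNA, is listed only in the WT table. Des and Cdh15 were lower but present, with Des at 1693 to 2561 in WT total and 469 and 620 in knockout total RNA, and Cdh15 at 391 to 471 and at 194 and 182. Myf5 was at 58.0 to 70.5 in WT total and at 107 and 123 in knockout total RNA. A small set of 4 gene models that collect ribosomal RNA-like reads took 0.0535 to 0.135% of the total RNA libraries. In the polysomal libraries they took 5.91, 14.5 and 0.674% in WT and 23.1, 32.7 and 0.385% in the knockout. Where this share moves with a result below, its part in the result was not tested. Refits without the libraries above 10% kept only library 3 of the knockout polysomal group, so they give effect sizes and no calls.

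The members are short genes, with a median gene model length of 1718 bases over the 73 members tested in WT against 3636 bases over all genes tested. Their promoters, the 250 bases before to 50 bases after the RefSeq start on GRCm38.p6, were found for 66 of the 75. For 47 of the 66 that start is the edge of the gene's RefSeq span, and for 19 it lies elsewhere. The ETS factor core CCGGAAG, read on either strand, was in 23 of these 66 (34.8%), against 20.8% of the 8844 tested genes with a promoter and 41.8% of 55 cytosolic ribosomal protein genes. The YY1 core AAGATGGCG was in 8 members (12.1%), against 3.80% of tested genes. The Sp1 box GGGCGG was in 33 members (50%), against 70.6% of tested genes. A start of C followed by 4 pyrimidines, the pattern of cytosolic ribosomal protein mRNAs, was found at the annotated start of 0 members, 3.05% of tested genes and 21.8% of the cytosolic ribosomal protein genes. These are matches of letters in a window and not measured binding sites.

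The following windows show the 100 bases before the start of 4 members, read on each gene's own strand, with the ETS core in capitals. Mrpl52 and Mrps26 are among the members that rose most, while Mrpl3 and Mrps22 hold the same core and were not called by limma in any of the 5 comparisons with all libraries kept.
Mrpl52 (chr14:54426809-54426908, plus strand): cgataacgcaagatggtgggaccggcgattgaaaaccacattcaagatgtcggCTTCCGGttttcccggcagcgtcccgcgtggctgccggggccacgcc
Mrps26 (chr2:130563657-130563756, plus strand): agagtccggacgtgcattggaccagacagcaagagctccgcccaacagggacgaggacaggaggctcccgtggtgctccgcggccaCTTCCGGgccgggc
Mrpl3 (chr9:105053168-105053267, plus strand): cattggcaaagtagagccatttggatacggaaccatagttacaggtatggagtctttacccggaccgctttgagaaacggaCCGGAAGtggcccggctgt
Mrps22 (chr9:98601680-98601779, minus strand): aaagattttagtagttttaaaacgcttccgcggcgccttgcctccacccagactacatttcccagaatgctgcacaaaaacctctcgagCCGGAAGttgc
The 23 members with the ETS core in their promoter had a median log2 difference of 0.85 in WT polysomal over total RNA, and the 41 tested members without it 0.72. The corresponding medians for knockout over WT total RNA were 0.85 and 0.59.

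A large subunit gene and a small subunit gene share 1 promoter region. Mrpl46 on the minus strand and Mrps11 on the plus strand of chromosome 7 start 41 bases apart, and the bases between their starts, with an Sp1 box in capitals, are shown because both genes are read out from them.
Mrpl46 to Mrps11 (chr7:78783090-78783130, plus strand): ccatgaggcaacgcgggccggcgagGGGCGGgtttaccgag
Mrpl46 had a log2 difference of 1.03 and Mrps11 of 1.10 in WT polysomal over total RNA, of which Mrpl46 passed the test. In knockout over WT total RNA the 2 genes stood at 0.88 and 0.49, and again Mrpl46 passed.

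Levels per length were compared in WT total RNA as the deposited value per kilobase of gene model. Among large subunit genes the highest were Mrpl52 at 188 ± 21.0 (SD, n = 3), Mrpl12 at 108 ± 5.69 and Mrpl42 at 99.1 ± 16.7, the last 2 within their spread of each other. Among small subunit genes Mrps16 led at 86.1 ± 4.49, before Mrps6 at 69.6 ± 3.54 and Mrps17 at 55.7 ± 4.54. Mrpl23 (0.556 ± 0.254) and Mrpl48 (1.17 ± 0.234) were the lowest large subunit genes, and Mrps36 (0.347 ± 0.336) and Mrps33 (2.41 ± 0.725) the lowest of the small subunit names. The median was 24.4 over the large and 23.1 over the small subunit genes. A gene model longer than the main mRNA lowers such a value: the model of Mrpl13 has 7929 bases.

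In WT cells, mRNAs of mitochondrial ribosomal proteins were higher in polysomal than in total RNA. Values are normalised within a library, so a difference is one of share among mRNAs and not of amount, and fewer cells cannot be told apart from less RNA per cell. Of 73 members tested, 23 rose and 0 fell, against 8.89% of all genes tested called higher and 13.8% called lower (limma on log2 of the value plus 1, Benjamini-Hochberg adjusted p under 0.05). By subunit 16 of 45 Mrpl genes and 7 of 28 Mrps genes rose. The median log2 difference was 0.75 over the members and -0.02 over all genes, and 70 of the 73 were above 0. In 56 members all 3 polysomal values lay above all 3 total RNA values, which held for 23.2% of all genes.

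Mrpl52, a protein found only in mitochondrial ribosomes, was at 69.5, 74.0 and 86.0 in the WT total libraries and at 182, 418 and 136 in the polysomal ones. All polysomal values were above all total values, with the second library far above the other two. The log2 difference was 1.50 ± 0.39 (SE), with a limma adjusted p of 0.0321.

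Mrpl13, a core protein of the large subunit with a bacterial counterpart, was at 443, 482 and 353 in total and at 1292, 1291 and 873 in polysomal RNA. Here the second library did not stand apart, and the difference was 1.42 ± 0.23 (limma adjusted p = 0.00707). It was the most abundant member by value in every library, and it took 8.02 to 11.0% of all member reads in WT total RNA and 12.3 to 17.5% in WT polysomal RNA.

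Mrps7, a protein of the head of the small subunit, was at 85.7, 88.1 and 84.3 in total and at 165, 290 and 171 in polysomal RNA. The difference of 1.22 ± 0.24 was the highest of the small subunit (limma adjusted p = 0.0136). Mrps6, a protein of the small subunit platform, stood at 76.0, 74.2 and 68.8 in total RNA. Its polysomal values were 144, 242 and 128, and the groups did not overlap.

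Further members of bacterial families that rose most were Mrpl33 (1.23), Mrpl30 (1.12), Mrpl47 (1.12), which is the counterpart of a protein at the exit tunnel, Mrps16 (1.10) and Mrpl27 (1.08), on the log2 scale with limma adjusted p of 0.0126 to 0.0497. Mrps26, known only from mitochondria, rose by 1.10. The gene spans of Mrps7, Mrps6 and Mrpl27 overlap protein-coding neighbours (Gga3 and Mif4gd, Slc5a3, and Eme1), as do the spans of 18 members in all. Over its whole 8694 bases the span of Mrpl33 overlaps Gm38424, a long non-coding RNA gene. Whether counting used strand is not given in the sources used here, so reads of such pairs may be shared.

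Members of the same structural part did not all pass. In the stalk, which recruits translation factors, Mrpl12 was at 162, 159 and 175 in total and at 268, 391 and 245 in polysomal RNA, a rise of 0.83 ± 0.21 (limma adjusted p = 0.0303). Its neighbours at the stalk base, Mrpl10 and Mrpl11, had log2 differences of 0.46 and 0.88 with limma adjusted p of 0.0979 and 0.0650. Mrpl32, a bacterial-family protein matured by a mitochondrial protease, rose by 0.98 (limma adjusted p = 0.0183).

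Some members showed little difference. Mrpl3, a core protein near the peptidyl transferase centre, was at 74.3, 71.6 and 62.7 in total and 77.4, 65.9 and 89.7 in polysomal RNA, and the groups overlapped. Mrpl44, with a ribonuclease III-like fold, differed by 0.12 ± 0.17, and Mrpl45, which lies at the inner membrane, by 0.48 ± 0.16 without passing (limma adjusted p = 0.0686). Mrps31 had the lowest value, -0.25 ± 0.31 (limma adjusted p = 0.569), with 26.4, 27.0 and 31.4 in total and 33.8, 14.1 and 27.0 in polysomal RNA.

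In the small subunit, Mrps12 of the decoding centre was at 34.5, 36.0 and 40.7 in total and at 57.4, 122 and 52.8 in polysomal RNA. The groups did not overlap, and the difference of 0.94 ± 0.32 did not pass (limma adjusted p = 0.0708). Mrps2 (0.51), Mrps5 (0.06), Mrps14 (0.41), Mrps22 (0.32) and Mrps34 (0.89) did not pass either. Nor did the 3 genes of the Mrps18 family, which encode related proteins at different places in the ribosome, at 0.47 for Mrps18a, 0.67 for Mrps18b and 0.82 for Mrps18c.

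**Figure D1:**
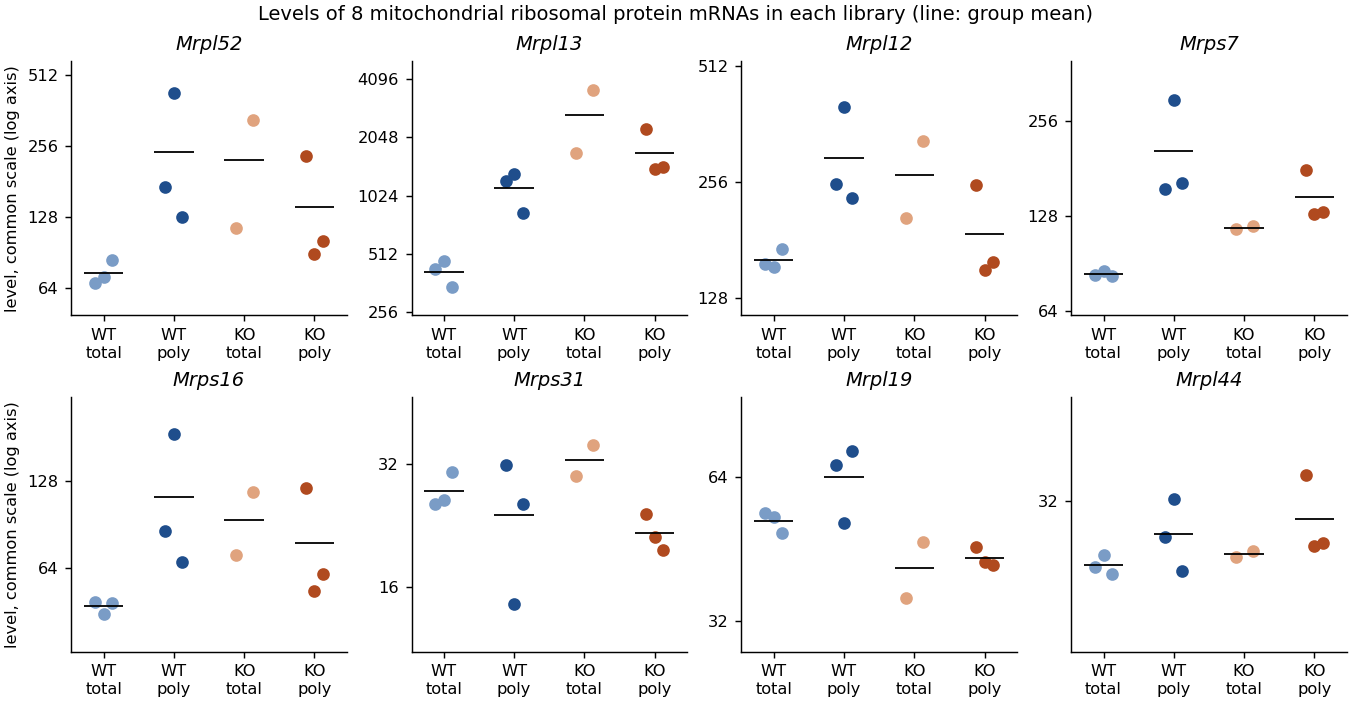
Levels of 8 members (log axis, common scale of all libraries) in each of the 11 libraries, grouped as WT total, WT polysomal (poly), knockout (KO) total and KO poly, with a line at each group mean. Mrpl52, Mrpl13, Mrpl12, Mrps7 and Mrps16 lie higher in all WT polysomal than in all WT total libraries, while Mrps31, Mrpl19 and Mrpl44 overlap.

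The size of the WT difference varied between the polysomal libraries. Against the WT total mean, the median log2 difference of the members was 0.62, 1.11 and 0.47 in WT polysomal libraries 1 to 3, with 71, 62 and 70 of 73 members above 0. Beside these medians the libraries held 5.91, 14.5 and 0.674% ribosomal RNA-like reads, whose part in the medians was not tested. The count of members called changed with each library left out: 1, 1 and 0 without WT total library 1, 2 or 3, and 12, 53 and 38 without WT polysomal library 1, 2 or 3. Over the same omissions of a WT total library the calls among all 12380 genes also fell, to 83 to 144 called higher. For the omissions of a WT polysomal library the share of all genes called is not given here. Those member counts are therefore not read as a result about the members. DESeq2 called 45 members higher against 17.4% of all genes, and edgeR 27 against 10.2%. At a false discovery rate under 0.05 in the authors' deposited table, 41 of 75 members were higher and 0 lower, against 13.0% of all genes higher.

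In knockout cells no member passed in either direction between polysomal and total RNA. Limma, edgeR and DESeq2 each called 0 of 73, with 2 members at an unadjusted limma p under 0.05, against 0.911% of all genes called higher and 1.85% called lower by limma. For edgeR these shares were 0.671 and 1.84%, and for DESeq2 4.45 and 6.22%. The median log2 difference was -0.21 over the members, -0.16 over the large and -0.25 over the small subunit, and 0.04 over all genes. By the authors' deposited table, 0 of 74 members passed, against 3.42% of all genes higher and 4.84% lower.

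Mrpl52 was at 109 and 314 in the 2 knockout total libraries and at 225, 86.2 and 100 in the knockout polysomal ones, so the total libraries spanned nearly the whole range. Mrpl13 was at 1608 and 3427 in total and at 2190, 1349 and 1419 in polysomal RNA, and its groups also overlapped. The log2 differences were -0.56 ± 0.51 and -0.54 ± 0.40. Mrps7 stood apart from these, with 110 and 112 in total and 173, 124 and 130 in polysomal RNA, without overlap, and 0.34 ± 0.24 did not pass (limma adjusted p = 0.427).

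The highest value was that of Mrpl42, a mitochondria-only protein, at 0.61 ± 0.43. The lowest was that of Mrpl28, a bacterial-family protein of the large subunit, at -0.76 ± 0.33 (limma adjusted p = 0.215). Mrpl28 was at 162 and 299 in total and at 175, 105 and 118 in polysomal RNA. Without knockout polysomal library 1, Mrpl28 (-0.98, limma adjusted p = 0.0438) and Mrpl16 (-0.87, limma adjusted p = 0.0480) were called lower. The share of all genes called lower in that refit is not given here.

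The knockout libraries did not move together. The member medians against the knockout total mean were 0.19, -0.49 and -0.33 in knockout polysomal libraries 1 to 3, beside ribosomal RNA-like shares of 23.1, 32.7 and 0.385%. The 2 knockout total libraries stood at -0.31 and 0.31 around their mean, and the median polysomal difference was -0.48 without the first and 0.10 without the second. Cytosolic ribosomal protein genes had medians of the same sign as the members in each of the 6 polysomal libraries, as the plot of library medians shows.

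**Figure D2:**
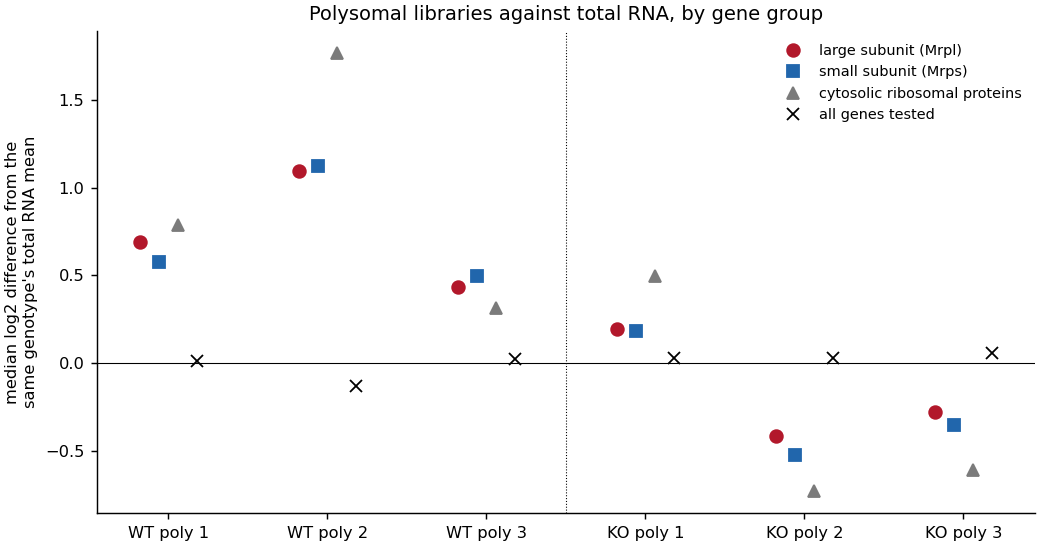
Median log2 difference of each polysomal library from the total RNA mean of its genotype (vertical axis) for Mrpl genes, Mrps genes, cytosolic ribosomal protein genes and all genes tested. Both mitochondrial subunits lie above 0 in the 3 WT libraries and in knockout library 1, and below 0 in knockout libraries 2 and 3.

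The polysomal difference was lower in knockout than in WT cells for 71 of 74 members, with a median difference of differences of -0.92 on the log2 scale (large -0.97, small -0.88) against 0.09 over all genes. In the fit over all 11 libraries no member passed (limma and edgeR 0 of 74, 31 members at an unadjusted limma p under 0.05), against 0.224% of all genes called higher and 0.0401% called lower by limma, and 0.176 and 0.0722% by edgeR. The lowest value was that of Mrpl52 at -2.06 ± 0.73 (limma adjusted p = 0.162), followed by Mrpl13 at -1.96 ± 0.46 (limma adjusted p = 0.0811). The highest was that of Mrpl48 at 0.11 ± 0.30.

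Another fit made calls here, all of them lower in the knockout. DESeq2 called 12 members, among them Mrpl52, Mrpl13, Mrpl12, Mrps26 and Mrps30, against 3.70% of all genes called lower and 3.92% called higher. Leaving out the 3 polysomal libraries above 10% ribosomal RNA-like reads gave 15 calls of 73 members, against 3.81% of all genes called lower in the same fit. They include Mrpl13, Mrpl12, Mrpl32, Mrps6, Mrps22 and Mrps26. Without knockout total library 1, which leaves 1 library in that group, Mrpl13 stood at -2.51 and Mrpl46 at -1.90. No calls are counted for that refit either. The comparisons share total RNA libraries: WT total RNA enters both the WT polysomal difference and the knockout over WT comparison that follows.

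In total RNA, mitochondrial ribosomal protein mRNAs were higher in knockout than in WT cells. All libraries were put on 1 scale for this comparison, and values in the knockout over WT comparisons are on that scale. Of 73 members 41 rose and 0 fell, 27 of 45 large and 14 of 28 small subunit genes, against 17.9% of all genes called higher and 18.9% lower. The median log2 difference was 0.68 (large 0.69, small 0.58) against -0.02 over all genes. Members of bacterial families rose in 29 of 47 cases and mitochondria-only members in 12 of 26. In 53 members both knockout values lay above all WT values (31.2% of all genes), and in 1 member, Mrpl19, below (34.0% of all genes).

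Mrpl13 changed most. It was at 429, 466 and 344 in WT total RNA and at 1700 and 3623 in knockout total RNA, so the lower knockout value was above the highest WT value several times over. The log2 difference was 2.60 ± 0.30 (limma adjusted p = 0.00107), which is also 2.95 above the median of 828 genes of similar length. Mrpl13 alone took 25.9 and 31.2% of all member reads in the knockout total libraries, against 8.02 to 11.0% in WT.

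Mrpl41, known only from mitochondria, was at 24.2, 25.9 and 26.0 in WT and at 44.0 and 125 in the knockout. Mrpl33 was at 74.3, 71.3 and 58.4 in WT and at 101 and 368 in the knockout. For both the second knockout library was far above the first, and the differences were 1.51 ± 0.36 and 1.50 ± 0.45 (limma adjusted p = 0.0156 and 0.0330).

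Mrpl52 (1.39), Mrpl36 (1.20), Mrpl27 (1.14), Mrps18c (1.14), Mrps26 (1.14), Mrpl14 (1.13) and Mrpl34 (1.12) completed the 10 largest rises. In the stalk all 3 members rose, Mrpl10 by 0.48, Mrpl11 by 0.81 and Mrpl12 by 0.69. Mrpl28 (0.89), Mrpl32 (0.88), Mrps6 (1.06), Mrps12 (0.93), Mrps14 (0.86), Mrps16 (0.94), Mrps34 (0.98), Mrps7 (0.49), Mrps18a (0.69) and Mrps30 (0.58) rose too. Mrps7 was steady within the knockout, at 116 and 118 against 82.9, 85.4 and 82.3 in WT.

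Other members stayed near their WT level or were not called. Mrpl3 (-0.08), Mrpl44 (0.05), Mrps2 (-0.00) and Mrps5 (0.02) differed by less than their standard errors of 0.14 to 0.16. Mrpl45 (0.21), Mrps22 (0.38), Mrps18b (0.20), Mrpl42 (0.47) and Mrps17 (0.59) did not pass. Mrpl19 had the lowest value at -0.33 ± 0.16 (limma adjusted p = 0.135), with 53.6, 52.7 and 48.9 in WT and 35.8 and 46.9 in the knockout. Its value was -0.52 without knockout library 2, which leaves only library 1 in that group.

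Against the WT total mean the member median was 0.36 in knockout total library 1 and 1.02 in library 2, with 64 and 67 of 73 members above 0. The count of calls was 23, 24 and 6 without WT total library 1, 2 or 3. The share of all genes called in these refits is not given here, so the counts are not read as a result about the members. Leaving out a knockout total library leaves that group without replication, so calls from such a refit are not read as a result. EdgeR called 45 members (19.3% of all genes higher, 16.7% lower) and DESeq2 48 (22.1% higher, 19.8% lower). Cytosolic ribosomal protein genes moved alongside, with 48 of 72 called higher, against 17.9% of all genes, and a median of 0.92. Of the myoblast marker list, 6 of 7 tested genes fell, against 18.9% of all genes, with -6.39 for Myod1, and Myf5 rose by 0.98. The part of a changed cell state in the member values was not tested.

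In polysomal RNA no member differed between knockout and WT by limma or edgeR (0 of 73, 5 at an unadjusted limma p under 0.05), against 1.62% of all genes called higher and 0.952% lower by limma, and 1.35 and 0.886% by edgeR. The median log2 difference was -0.26, and -0.06 without WT polysomal library 2. Mrpl13 was highest at 0.59 ± 0.32, with 1218, 1327 and 827 in WT and 2265, 1404 and 1435 in the knockout, without overlap. It and Mrpl48 (0.16) were the 2 members whose knockout values all lay above the WT values (12.5% of all genes). In 8 members they all lay below (11.1% of all genes), among them Mrpl35 at 63.9, 88.1 and 65.7 in WT and 45.9, 30.3 and 36.3 in the knockout. Mrpl35 had the lowest value, -0.94 ± 0.25 (limma adjusted p = 0.110), and was the 1 member called by DESeq2 (adjusted p = 0.0184), against 4.59% of all genes called higher and 3.25% lower.

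**Figure D3:**
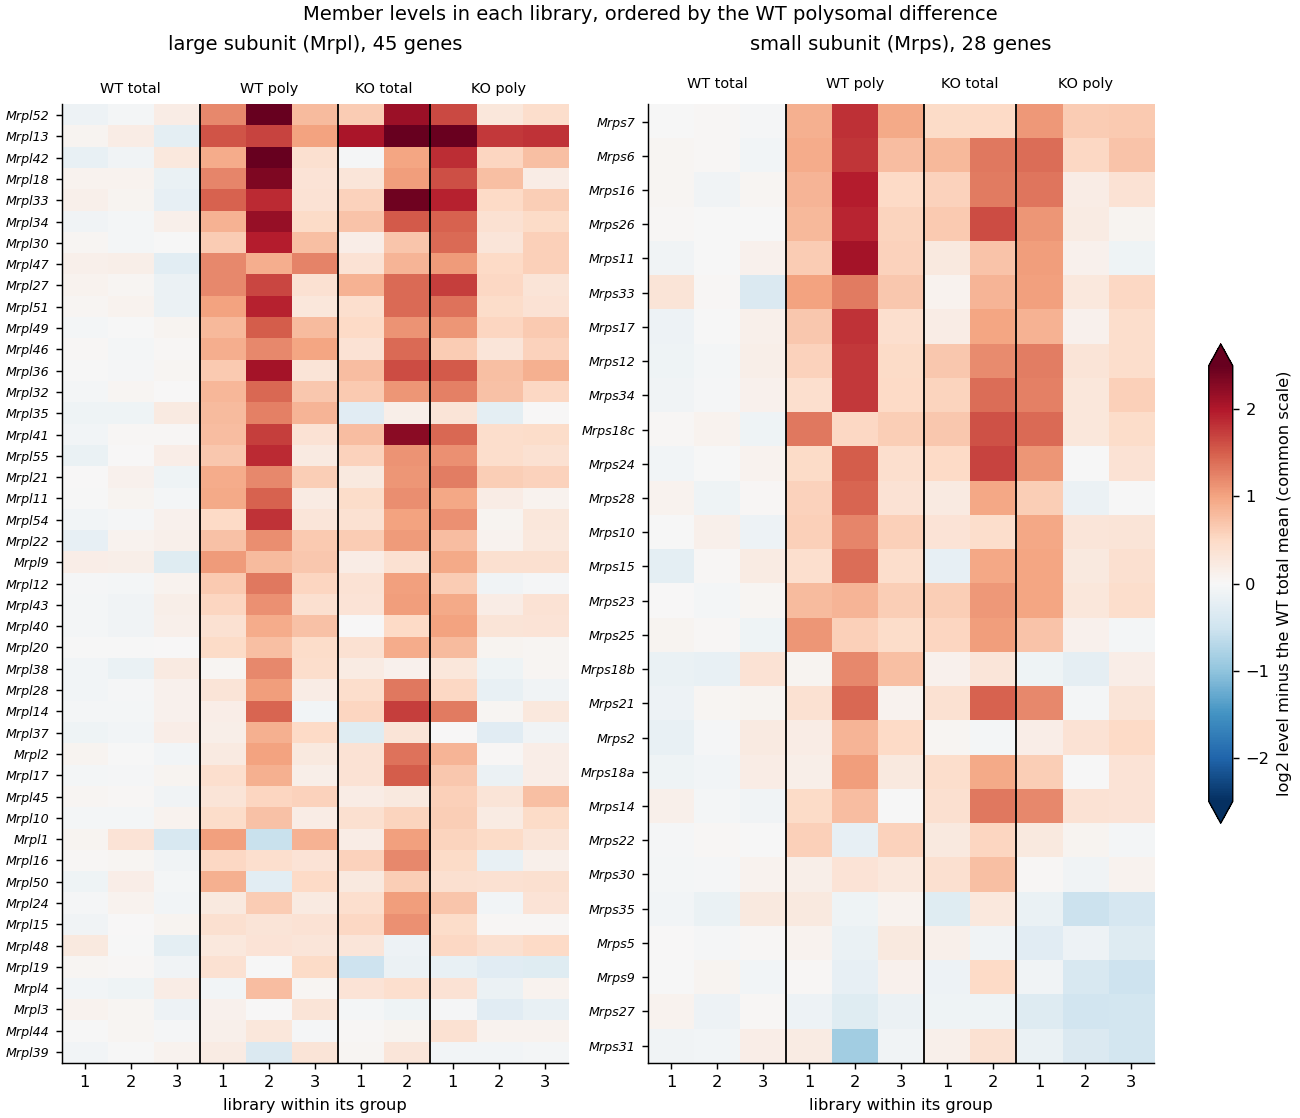
Log2 level of 73 members (rows) in each library (columns, numbered within groups) minus the WT total mean, on the common scale, with red for higher and blue for lower. Rows are ordered by the WT polysomal difference, and the columns of WT polysomal library 2 and knockout total library 2 stand out as higher.

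The medians of the subunits lay close to each other. The median of Mrpl genes minus that of Mrps genes was 0.08 in the WT polysomal comparison and 0.09 in the knockout one. By library it was 0.12, -0.03 and -0.06 in WT and 0.01, 0.11 and 0.07 in the knockout, so in WT its sign was not shared by the libraries. With Mrps18a and Mrps30 counted as large subunit, as in the known structure, and Mrps36 left out, the WT value was -0.08 and the knockout value 0.07.

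Summed reads gave a subunit difference that 1 gene, Mrpl13, carried for the most part. The ratio of large to small subunit reads was 2.04 to 2.21 in WT total, 2.26 to 2.55 in WT polysomal, 2.80 and 3.40 in knockout total and 2.73 to 2.94 in knockout polysomal RNA. Without Mrpl13 the same ratios were 1.80 to 1.86, 1.81 to 1.93, 1.82 and 2.03, and 1.85 to 1.99. All members together took 0.436 to 0.451% of reads in WT total, 0.695 to 0.865% in WT polysomal, 0.689 and 1.11% in knockout total and 0.463 to 0.808% in knockout polysomal RNA. With the ribosomal RNA-like reads left out of the totals, the shares were 0.437 to 0.452% in WT total RNA and 0.823, 1.01 and 0.700% in WT polysomal libraries 1 to 3. In the knockout they were 0.689 and 1.11% in total RNA and 1.05, 0.687 and 0.711% in polysomal RNA.

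Gene length moved with the fold change across all genes, and the members are short. In WT polysomal over total RNA the slope of the log2 difference per doubling of length was -0.23, -0.53 and -0.14 in libraries 1 to 3, and in the knockout polysomal libraries -0.16, 0.17 and 0.11. In knockout over WT total RNA it was -0.14 and -0.37. Each member was therefore set against all non-member genes within 10% of its length.

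In WT polysomal RNA the genes of similar length had a median of 0.30, and the members lay 0.49 above their own set in the median, with 65 above and 8 below. The excess was 0.51 for large and 0.48 for small subunit genes, and 0.35, 0.74 and 0.37 in libraries 1 to 3. Mrpl13 lay 1.88 and Mrps26 1.21 above genes of their length, both among the longer gene models, while Mrps31 and Mrps27 stood at -0.59 and -0.46 against theirs. With the length trend removed from each library before the test, 17 members were called higher, against 10.7% of all genes in that fit.

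In knockout polysomal RNA the members stood at -0.18 against genes of similar length (22 above and 51 below). The value was 0.08, -0.25 and -0.19 by library and -0.0045 without knockout total library 2. For knockout over WT total RNA the excess was 0.34 (59 above, 14 below), at 0.20 in knockout library 1 and 0.46 in library 2. With the length trend removed 29 members were called higher there and Mrps27 lower (-0.39, limma adjusted p = 0.0469), against 18.0% of all genes called higher and 18.5% lower.

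By length, the 25 shortest members (up to 1405 bases) had a WT polysomal median of 0.87 against 0.50 over all other genes of that range. The 23 of middle length had 0.75 against 0.24, and the 25 longest 0.51 against -0.20. The last reference holds all other genes above 2555 bases, also those longer than any member, so its gap is not matched for length. Members thus lay above the other genes in each length range.

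**Figure D4:**
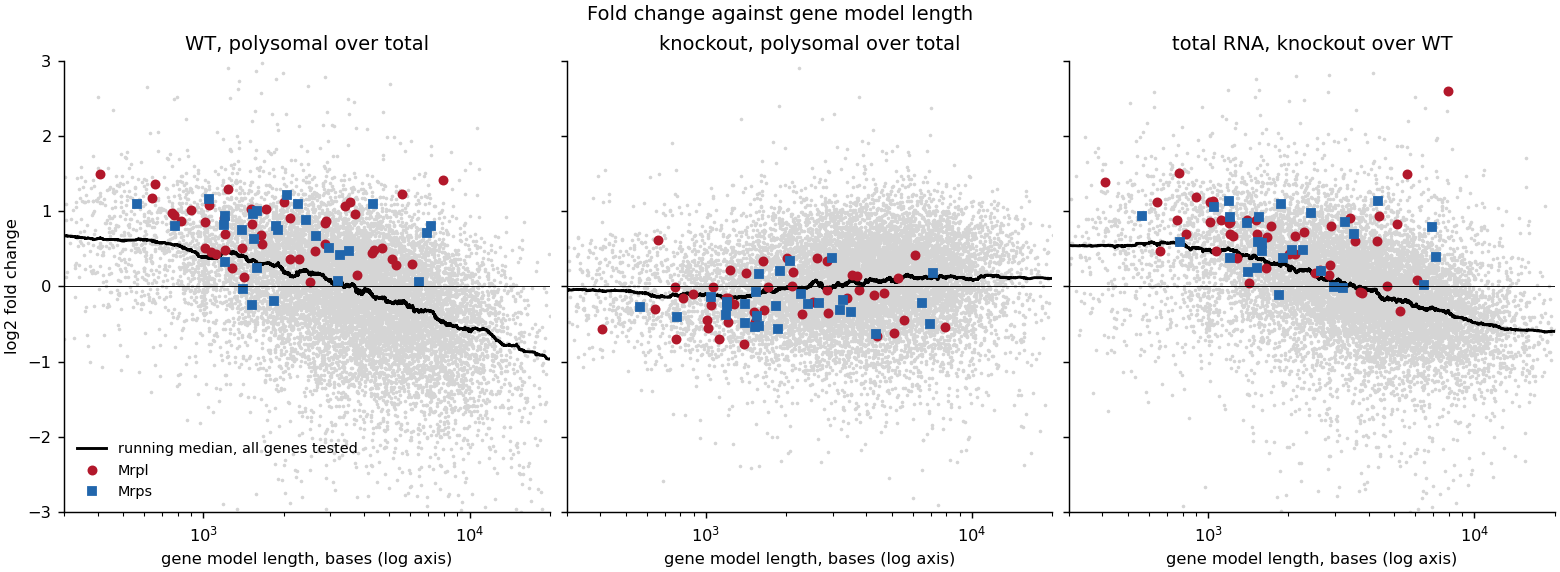
Log2 fold change (vertical axis) against gene model length (log axis) for all genes tested (grey), with their running median (black line), Mrpl genes (red circles) and Mrps genes (blue squares), in WT polysomal over total, knockout polysomal over total and knockout over WT total RNA. Most members lie above the line in the left and right panels and below it in the middle panel, and the point at the top right of the right panel is Mrpl13.

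Other genes of mitochondrial translation were read from lists chosen for their function. Of 7 mitochondrial ribosomal proteins that carry other names, 1 rose in WT polysomal RNA, against 8.89% of all genes, and 5 in knockout total RNA, against 17.9% (Mrp63, Chchd1, Aurkaip1, Gadd45gip1 and Dap3). The former, Chchd1, a small subunit protein, stood at 43.0, 38.7 and 31.8 in WT total and 101, 260 and 66.1 in WT polysomal RNA. Mrp63, a large subunit protein, rose by 1.16 and Chchd1 by 1.10 in knockout total RNA.

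Of 26 assembly factors of the mitochondrial ribosome, 3 rose in WT polysomal RNA (Malsu1, Fastkd2 and Rpusd4), against 8.89% of all genes, while in knockout total RNA 9 rose and 1 fell, against 17.9 and 18.9%. The 1 that fell was Mtg2, a GTPase of the large subunit, at -0.49 (limma adjusted p = 0.0394). Their medians were 0.33 and 0.35, lower than those of the ribosomal proteins, and this list's genes are longer (median 2966 bases).

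Among 14 mitochondrial translation factors 2 rose (Slirp and Mtrf1l) and Lrpprc fell in WT polysomal RNA, against 8.89% of all genes higher and 13.8% lower. In knockout total RNA 3 rose (Slirp, Tsfm and Mtif3), against 17.9%. Slirp and Lrpprc encode partner proteins that protect mitochondrial mRNAs, and their mRNAs went opposite ways between fractions. Slirp stood at 34.8, 41.2 and 30.2 in WT total and 91.3, 90.6 and 69.6 in WT polysomal RNA, a rise of 1.22 ± 0.20 (limma adjusted p = 0.00761).

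Lrpprc, with a gene model of 8123 bases, was at 132, 133 and 121 in WT total and 84.3, 34.9 and 67.8 in WT polysomal RNA, and fell by 1.12. In the knockout it was at 144 and 122 in total and 34.4, 62.5 and 43.2 in polysomal RNA. That difference of -1.53 (limma adjusted p = 0.0319) was the 1 call in the knockout polysomal comparison among the other-named ribosomal proteins, assembly factors, translation factors and RNA synthesis and processing genes.

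Of 18 genes for mitochondrial RNA synthesis and processing, 4 rose in WT polysomal RNA, which were Tbrg4 (1.28), Trmt10c (1.10), Fastkd3 (0.95) and Tfb2m (0.74), against 8.89% of all genes. In knockout total RNA 2 rose (Hsd17b10 and Tefm), against 17.9%. The mitochondrially encoded mRNAs, which are translated by the mitochondrial ribosome itself, had a median of -0.59 in WT polysomal over total RNA. Of the 7, 2 were lower (mt-Nd1 and mt-Nd2) and 0 higher, against 13.8 and 8.89% of all genes. Of 72 cytosolic ribosomal protein genes 10 rose in WT polysomal RNA, against 8.89% of all genes, with a median of 0.95. The mitochondrial members had 23 of 73 and 0.75.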

How the data were processed

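RNA-seq of total and polysomal RNA was analysed in 11 libraries of 4 groups. Per the submitters' processing notes, reads were handled with STAR, HTSeq and edgeR on mm10, with roles and versions not given in the sources used here. The deposited signal values are whole reads times 1 factor per library, with a scaling by the authors that was done for each genotype on its own: 100% of values gave whole reads within 0.001 reads. Their sums differ between libraries, unlike the CPM that had been planned for, so they are called normalised values. The authors' deposited log2 fold changes and their deposited p-values (false discovery rates) were used only where named. Knockout columns were matched to their group and not to single samples.

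Main tests used limma 3.58.1 (R 4.3.3) with a mean-variance trend on log2(value + 1), a minimum value of 1 in 3 or more fitted libraries, and Benjamini-Hochberg adjustment over all genes tested. Fold changes are on that scale, which understates changes of low genes. Knockout over WT comparisons used 1 common scale (median of ratios over genes in both tables). Alternatives were edgeR 4.0.16 and DESeq2 1.42.0 on the read counts recovered from these values, other pseudocounts (0.5, 0.1), scalings and filters, length trend removal (loess, span 0.5), the replicate number as a block, and each library left out. The fit was tested on simulated data with 200 changed genes. Sequences are from RefSeq.

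The members and lists were chosen with earlier results of these data known. Members named in the text are the up to 10 largest changes per test, the highest and lowest, the extremes of level per length, members of 1 table, and a panel of 21 chosen by role. Other genes named are up to 3 per direction and test. Mrpl46, Mrps11, Mrpl16, Mrps27, the myoblast markers, further list members of small counts and the mt- genes were added after their values were seen.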

Additional observations from a re-analysis of the deposited data

How the results depend on the processing

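The count of members called higher in WT polysomal over total RNA was 23. It was 22 to 27 under other pseudocounts, no filter, another scaling or edgeR, 17 with the length trend removed, 45 with DESeq2 and 15 with the replicate block. Leaving out 1 library gave 0 to 53, with the share of all genes called not given for each of these refits. Same-number correlations of deviations between WT total and WT polysomal libraries were 0.21, -0.22 and -0.07. With 3 libraries per group they cannot show whether the replicate numbers pair the samples. Whether a call lost under the block marks a weaker effect is therefore left undecided. Calls in knockout polysomal RNA were 0, and 0 to 2 with 1 library left out. Calls for the difference between genotypes were 0, but 12 with DESeq2. The refit without the libraries rich in ribosomal RNA-like reads was an alternative chosen after seeing the data. It and the refits without a knockout total library leave 1 library in a group, so calls from them are not read as a result. The 41 calls for knockout over WT total RNA ranged from 6 to 57 with 1 library left out. The upper end of that range came from leaving out a knockout total library, which leaves 1 library in that group. It is therefore not read as a result about the members, and the share of all genes called is not given for it. Knockout over WT polysomal RNA gave 1 call with DESeq2. The large minus small value was -0.085 in WT with structural subunits, and with 1 library left out -0.0021 to 0.093 in WT and 0.069 to 0.152 in the knockout. The excess over similar length was 0.359 to 0.573 in WT and -0.246 to -0.0045 in the knockout. No named member that was called reversed its direction under the alternatives run. The cause of these shifts was not tested.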

Other observations

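The RNA parts and the mRNA substrates of the mitochondrial ribosome were also listed, and were chosen after their values were seen. The small subunit ribosomal RNA mt-Rnr1 was at 78.6, 92.3 and 102 in WT total RNA and at 146 and 252 in knockout total RNA, in the deposited units. The large subunit ribosomal RNA mt-Rnr2 was at 268, 310 and 246 in WT and at 514 and 963 in the knockout. Both rose in knockout over WT total RNA on the common scale, by 1.20 ± 0.23 for mt-Rnr1 and 1.48 ± 0.25 for mt-Rnr2 (limma adjusted p = 0.00779 and 0.00481). In polysomal RNA they ranged widely, for mt-Rnr1 54.3, 340 and 22.6 in WT and 699, 1072 and 39.3 in the knockout, with the high values in the libraries that held the most ribosomal RNA-like reads.

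Of the 7 mitochondrially encoded mRNAs tested, all were higher in knockout than in WT polysomal RNA, with a median log2 difference of 1.46, while the nuclear mitochondrial ribosomal protein genes had -0.26. Of the 7 mRNAs, 1 passed, against 1.62% of all genes called higher. The 1 that passed was mt-Nd2, a subunit of respiratory complex I, at 1.49 ± 0.28 (limma adjusted p = 0.0356). It was at 333, 280 and 350 in WT polysomal and at 640, 802 and 1205 in knockout polysomal RNA, in the deposited units, which are scaled for each genotype on its own. In total RNA the 7 had a median of 0.58.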
